A study of Sus scrofa with 8 samples.

Results

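The genes that encode the proteins of the cytosolic ribosome were examined in the livers of pigs fed a steatotic diet with or without squalene. They were taken by name: every gene of the expression table whose symbol began with RPL or RPS followed by a digit, together with *RPLP0*, *RPLP1*, *RPLP2* and *RPSA*, and without the RPS6K kinases. The rule took 84 of 20430 genes, 51 with names starting RPL and 33 with names starting RPS. Of these, 77 were taken as core genes, a choice made by name that kept the paralogs *RPL36AL* and *RPS4X*. The other 7 were *RPL3L*, *RPL7L1*, *RPL10L*, *RPL22L1*, *RPL26L1* and *RPS27L*, which are paralogs named after a ribosomal protein, and *RPS19BP1*, which encodes a protein that binds a ribosomal protein and came in through the letters of its name.

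Livers came from 24 male Large White x Landrace pigs, 12 in each diet group, and RNA of 3 animals was combined in each of 8 pools. The squalene group (4 pools) received the steatotic diet with 0.5% squalene, a triterpene intermediate of cholesterol synthesis, and the control group (4 pools) received the same diet without it. Both groups were therefore on the steatotic diet, which was rich in cholate, saturated fat, cholesterol and fructose and poor in methionine and choline. No group on a standard diet was part of the comparison. All pigs had eaten the steatotic diet for a month and had a liver biopsy before the groups were formed. Each group then received its diet for another month, and all pigs were killed after an overnight fast. A pool averages its 3 animals, so the error given for a diet is the spread between pools. The question was whether the diets differed in these genes and how the genes varied together from pool to pool.

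A ribosome is built from a small and a large subunit, each made of ribosomal RNA and a fixed set of proteins, and the cell needs those proteins in fixed proportions. In vertebrates most of the mRNAs start with a C followed by an unbroken stretch of pyrimidines, the 5′ terminal oligopyrimidine or TOP motif, through which their translation responds jointly to nutrients and to mTOR signalling. In the liver, a tissue that exports large amounts of protein, ribosomal protein mRNAs belong to the abundant transcripts of every cell type.

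Because this shared start is the sequence feature that ties the genes together, the region around the annotated start of each gene was read from the pig genome (Sscrofa11.1), from 30 bases before the start to 20 bases from the start on, on the strand of the gene. Capitals mark an unbroken run of at least 8 letters that are each C or T. The first 5 windows, of core genes, hold such a run across the start itself, and the last 2 hold none. They are shown because the first group carries the TOP pattern, and *RPL7L1* and *RPS27L* were paralogs whose levels did not follow the rest.
RPL13A, chr6:54564763-54564812, plus strand: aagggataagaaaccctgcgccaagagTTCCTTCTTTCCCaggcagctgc
RPS26, chr5:21431626-21431675, plus strand: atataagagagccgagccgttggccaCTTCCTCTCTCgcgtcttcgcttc
RPS20, chr4:75762179-75762228, plus strand: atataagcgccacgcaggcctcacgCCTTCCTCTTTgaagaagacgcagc
RPL17, chr1:99048387-99048436, minus strand: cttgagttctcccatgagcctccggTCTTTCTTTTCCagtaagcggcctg
RPL9, chr8:30699170-30699219, minus strand: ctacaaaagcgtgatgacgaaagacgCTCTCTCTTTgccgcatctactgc
RPL7L1, chr7:37940519-37940568, plus strand: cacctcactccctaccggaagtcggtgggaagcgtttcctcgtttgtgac
RPS27L, chr1:108881300-108881349, plus strand: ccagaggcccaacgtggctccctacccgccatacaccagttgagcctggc

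A run across the start was found in 24 of 83 ribosomal protein genes (28.9%), against 4.99% of the 13425 genes with a placed transcript and 4.21% of the 570 other genes at 100 FPKM or more. A run anywhere in the 50 bases was found in 44 of 83 (53.0%), against 19.9% of all genes. The annotated first base was C in 48.2% of the ribosomal protein genes and in 28.2% of all genes. None of *RPL3L*, *RPL7L1*, *RPL22L1*, *RPL26L1* and *RPS27L* had a run in its window. *RPS19BP1*, which encodes no ribosomal protein, had a run across its start and is counted among the 24. Core genes without a run were also found, such as *RPL13* and *RPS3A*, whose levels moved closely with the rest. A run in the window thus did not separate genes that followed the rest from genes that did not. The annotated start of a transcript model can lie away from the real one, and a model marked partial has no known start base. Of the 73 genes whose model was not partial, 20 (27.4%) had a run across the start. A window without a run says only that these letters are not at this place. The genes lay scattered over the genome, with 12 each on chromosomes 1 and 6 and 4 on chromosome X.

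Levels are given as FPKM, fragments scaled for transcript length and for the mapped fragments of the library, as the authors deposited them, which allows genes of different length to be set side by side. Ribosomal protein mRNAs held a large share of all FPKM. Their sum was 9.17, 9.64, 10.4 and 8.96% in squalene pools 1 to 4, against 11.7, 8.79, 11.4 and 10.8% in control pools 1 to 4. Control pool 2 was thus the lowest of the 8 pools, while the other 3 control pools lay above all 4 squalene pools. The mean share was 9.56 ± 0.659% on squalene and 10.7 ± 1.30% on control (SD, n = 4 each), a difference of -1.10 percentage points that was smaller than the SD of the control pools. Without control pool 2 the difference was -1.72 points. Genes with names starting RPL and RPS kept nearly the same proportion in every pool, with a ratio of their sums of 1.28 to 1.31 on squalene and 1.30 to 1.33 on control.

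**Figure D1:**
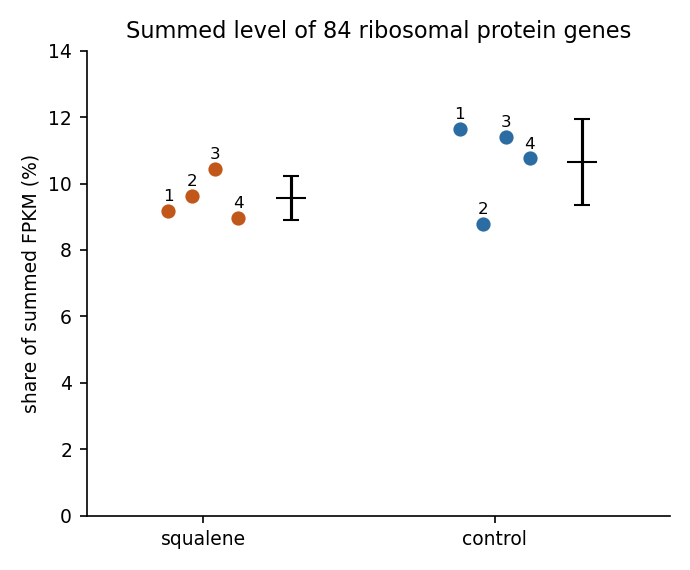
Summed FPKM of the 84 ribosomal protein genes as a percent of the summed FPKM of all genes, by pool. Points are pools with their number, the horizontal bar is the mean and the whiskers are the SD over 4 pools. The squalene pools lie between 8.96 and 10.4%, and control pool 2, at 8.79%, lies apart from the other control pools at 10.8 to 11.7%.

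Since FPKM are shares of one library, an abundant transcript can move all the others. Albumin alone held 7.75, 8.27, 5.15 and 9.04% of FPKM in squalene pools 1 to 4, against 4.57, 4.36, 8.62 and 6.40% in control pools 1 to 4, so its highest share stood in squalene pool 4 and its lowest in control pool 2, the 2 pools with the lowest ribosomal protein shares. When the 10 most abundant genes of each pool were left out of the sum, the ribosomal protein share was 11.4, 12.02, 12.5 and 11.2% in the squalene pools, against 13.8, 10.6, 14.3 and 13.1% in the control pools, with the same pool lowest. An estimate from the authors' added counts put the depth at 17.5 to 19.6 M fragments in the squalene pools, against 16.5 to 21.8 M in the control pools, control pool 2 being the deepest. Added over its 4 pools, the core genes had 8245 to 105006 fragments each on squalene and 9536 to 125781 each on control, so counting error was small beside the spread between pools. Depth was not given per pool in the sources used here, and its part in the result was not tested.

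The highest levels belonged to genes of both subunits. *RPL10*, a late-joining protein near the peptidyl transferase centre, was the most abundant and read 1824, 2051, 2025 and 1639.6 FPKM in squalene pools 1 to 4, against 2396, 1762, 2432 and 2225 FPKM in control pools 1 to 4. Its 3 highest pools were control pools 1, 3 and 4, and control pool 2 lay within the squalene range. *RPLP1*, an acidic protein of the stalk that recruits elongation factors, averaged 1580.0 ± 148 FPKM on squalene and 1725 ± 292 FPKM on control. *RPS27*, a zinc-binding protein of the small subunit, averaged 1474 ± 142 FPKM on squalene and 1774 ± 230.2 FPKM on control. *RPS26*, at the exit of the mRNA channel, averaged 1471 ± 126 FPKM on squalene and 1611 ± 199 FPKM on control. *RPS29*, another zinc-binding protein of the small subunit, averaged 1326 ± 118 FPKM on squalene and 1502 ± 171 FPKM on control. *RPL35*, at the rim of the polypeptide exit tunnel, averaged 1343 ± 79.2 FPKM on squalene and 1418 ± 195 FPKM on control (SD, n = 4 each for these genes). The 2 diets overlapped in each of these 6 genes.

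No ribosomal protein gene passed the test between the diets. The test was limma on log2(FPKM + 0.1), run over the 14780 genes that averaged 0.1 FPKM or more, with Benjamini-Hochberg adjustment and a threshold of 0.05, and 83 of the 84 genes entered it. Genes called at that threshold numbered 0 of 83 here and 0% of all genes, and the smallest adjusted p of a ribosomal protein gene was 0.9997 by limma. At an unadjusted p under 0.05, 5 of the 83 were lower on squalene, against 2.28% of all genes, and 0 were higher, against 2.08% of all genes. The count of 5 was not stable: it was 0 without control pool 3, 0 without control pool 4, 1 without control pool 1, 1 without squalene pool 4, 2 without squalene pool 1 or 2, 12 without squalene pool 3, and 0 lower with 1 higher when the median gene of each pool was made equal. No ribosomal protein gene had all its squalene pools below all its control pools, against 1.54% of all genes, and none had them all above, against 1.13%.

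The direction was nearly uniform. The fitted log2 fold change, squalene over control, was below 0 in 78 of 83 genes, against 52.9% of all genes. The median log2 fold change was -0.16 over the ribosomal protein genes, beside -0.012 over all genes tested. The genes share the libraries and rise and fall together, so the 78 are not separate observations. The median stood at -0.16 for names starting RPL (50 genes tested) and at -0.16 for names starting RPS (33 genes). The stalk genes *RPLP0*, *RPLP1*, *RPLP2* and *RPL12* had a median of -0.19, the genes near the peptidyl transferase centre *RPL3*, *RPL4*, *RPL8* and *RPL10* of -0.18, and the 8 genes of the exit tunnel rim of -0.16. The genes *RPS2*, *RPS3*, *RPS15* and *RPS23*, whose proteins line the decoding site and the mRNA entry, had a median of -0.14. The 9 genes whose loss causes Diamond-Blackfan anemia in humans had a median of -0.12, with 8 of 9 below 0. The lowest median, -0.29, belonged to *RPL5* and *RPL11*, the proteins that carry 5S ribosomal RNA into the large subunit and bind the p53 regulator MDM2.

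**Figure D2:**
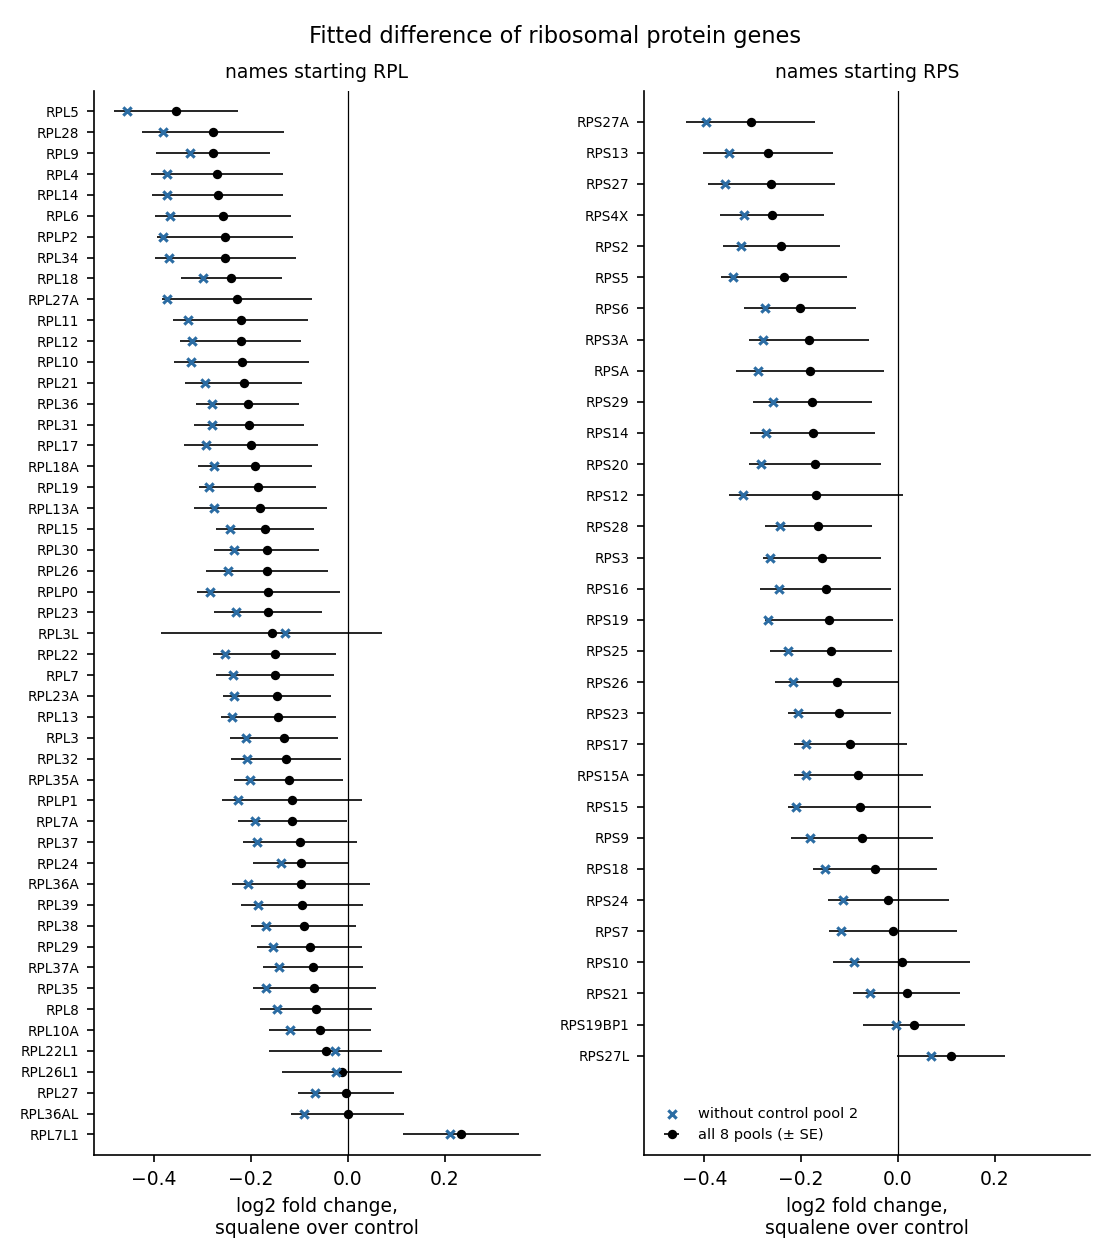
Log2 fold change, squalene over control, of log2(FPKM + 0.1) for ribosomal protein genes, ordered by size within each panel. Points with whiskers are the fit and its standard error over 8 pools and crosses are the fit without control pool 2, which lies further below 0 for most core genes; RPL7L1 and RPS27L lie above 0 in both.

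The gene with the lowest fold change was *RPL5*. It read 446, 546, 558 and 495 FPKM in squalene pools 1 to 4, against 694, 526, 713 and 690.2 FPKM in control pools 1 to 4. Control pools 1, 3 and 4 lay above every squalene pool, and control pool 2 lay among the squalene pools. The mean was 511 ± 51.4 FPKM on squalene and 656 ± 87.0 FPKM on control, and the log2 fold change was -0.35 ± 0.13 (SE), an unadjusted p of 0.0200 with an adjusted p of 0.9997 by limma.

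The 4 other genes with an unadjusted p under 0.05 were *RPS4X*, *RPL9*, *RPL18* and *RPS27A*. *RPS4X*, a small subunit protein encoded on the X chromosome, read 316, 313, 368 and 321 FPKM in squalene pools 1 to 4, against 388, 349.6, 395 and 449 FPKM in control pools 1 to 4, and only squalene pool 3 lay above the lowest control pool. *RPL9*, which sits near the base of the stalk, read 601, 601, 646 and 505 FPKM in the squalene pools, against 654, 642, 767 and 790.3 FPKM in the control pools, and overlapped by squalene pool 3 alone. *RPL18*, on the solvent side of the large subunit, read 329, 358, 380.1 and 324 FPKM in the squalene pools, against 415, 363, 456 and 411 FPKM in the control pools. In it, too, squalene pool 3 alone lay above control pool 2. *RPS27A*, made as a fusion with ubiquitin, read 709.7, 774, 818 and 613 FPKM in the squalene pools, against 909, 739, 943 and 1009 FPKM in the control pools, and squalene pools 2 and 3 lay above control pool 2. Their log2 fold changes were -0.26 ± 0.11 for *RPS4X*, -0.28 ± 0.12 for *RPL9*, -0.24 ± 0.10 for *RPL18* and -0.30 ± 0.13 for *RPS27A* (SE), all with an adjusted p of 0.9997 by limma.

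Low p values were also found for *RPS13* and *RPS2*, proteins of the small subunit, with log2 fold changes of -0.27 ± 0.13 and -0.24 ± 0.12 (SE). *RPL28* and *RPL4*, proteins of the large subunit of which *RPL4* reaches into the exit tunnel, had log2 fold changes of -0.28 ± 0.15 and -0.27 ± 0.14. At the other end, *RPS10*, a protein at the mRNA entry, averaged 453 ± 57.6 FPKM on squalene and 453 ± 76.7 FPKM on control. *RPS21*, a small protein of the small subunit, averaged 719.6 ± 46.0 FPKM on squalene and 713 ± 74.9 FPKM on control (SD, n = 4 each). *RPL27* and *RPL36AL* had log2 fold changes of -0.0033 ± 0.099 and -0.00044 ± 0.117 (SE). The sign for these 4 genes turned when the scaling changed or a pool was left out.

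Control pool 2 decided how far the diets were apart. It was the lowest of the 8 pools for 34 of 77 core genes, squalene pool 4 for 27, squalene pool 1 for 12, squalene pool 2 for 4 and squalene pool 3 for 0. It lay below the mean of the squalene pools for 70 of the 77. The highest pool was control pool 3 for 46 core genes, control pool 1 for 24 and control pool 4 for 6. For 53 of 77 core genes, control pools 1, 3 and 4 lay above all the other 5 pools, which was the case for 233 of 14780 genes in all. This pattern was read from the core genes themselves before it was counted over all genes.

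When control pool 2 was left out, 53 of 83 genes had all squalene pools below all remaining control pools, against 2.84% of all genes, and 41 of 83 had an unadjusted p under 0.05 and were lower on squalene, against 2.01% of all genes. None of the 83 had an adjusted p under 0.05 by limma even then, and the median log2 fold change was -0.24, beside 0.012 over all genes. Leaving out squalene pool 3, the highest of its diet, gave 4 genes without overlap. Leaving out control pool 3 gave a median log2 fold change of -0.10. These values show how much 1 pool of 3 animals weighed, and nothing in the labels sets control pool 2 apart from its group. Control pool 2 was picked by the values of these same genes, so the shares over all genes are not a fair background here. No difference between the diets was read from the counts without it.

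**Figure D3:**
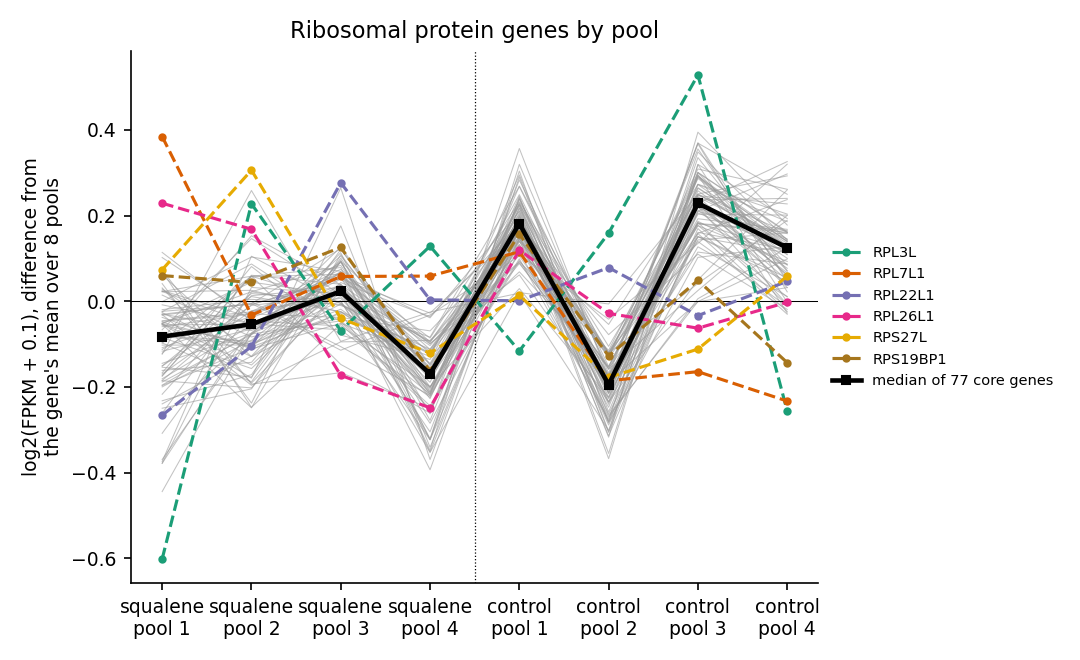
Difference of log2(FPKM + 0.1) from the gene's mean over the 8 pools, by pool. Grey lines are the 77 core genes, the black line is their median, and dashed lines are the 6 other genes tested; lines join the values of 1 gene and pools have no order. The median core gene lay at -0.08, -0.05, 0.02 and -0.17 in squalene pools 1 to 4, and at 0.18, -0.20, 0.23 and 0.12 in control pools 1 to 4, and the dashed lines follow other paths.

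The core genes moved as a block. Pearson's r across the 8 pools, taken over every pair of ribosomal protein genes, had a median of 0.781 (3403 pairs). Among the 77 core genes the median was 0.811, and all 2926 pairs had an r above 0. Over all pairs of the 4318 other genes at 10 FPKM or more, the median was 0.0863. Within diets, after subtracting the mean of each diet, the median over the ribosomal protein genes was 0.762, so the joint movement did not rest on the difference between diets. These r values are a description: all pairs share the same 8 libraries, and the abundant genes share the denominator of each library. The spread of a core gene across pools was ordinary in size, with a median SD of 0.17 on the log2 scale, beside 0.17 over the other genes at 10 FPKM or more. After the mean core profile of each pool was subtracted, it was 0.09.

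Among the genes closest to the rest were *RPS3*, at the mRNA entry, with an r of 0.982 with the mean of the others, *RPS26* with 0.978, *RPL10* with 0.975 and *RPL13*, of the large subunit, with 0.972. *RPS3* read 547, 539.9, 588 and 521 FPKM in squalene pools 1 to 4, against 659.8, 490.0, 692 and 624 FPKM in control pools 1 to 4, with 3 high control pools and control pool 2 below every squalene pool. In core genes whose lowest pool was a squalene pool, as counted above, the order at the bottom was different. Of the 77 core genes, 76 had an r of at least 0.7 with the mean of the others. The exception was *RPS10* (0.570). Of the 100 genes most like the mean profile among 4400 genes at 10 FPKM or more, 65 were ribosomal protein genes, the mean profile being made from those same genes.

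The narrowest spread across pools belonged to *RPL10A*, *RPL24*, *RPL27* and *RPL37A*, all of the large subunit. *RPL24*, part of a bridge between the subunits, averaged 443 ± 24.1 FPKM on squalene and 474 ± 38.9 FPKM on control. The widest spread among core genes belonged to *RPL5*, *RPL27A* and *RPS12*. *RPS12*, of the small subunit, read 847, 776, 1056 and 680.4 FPKM in squalene pools 1 to 4, against 1005, 681, 1097 and 1005 FPKM in control pools 1 to 4, so that squalene pool 4 and control pool 2 were nearly equal at the bottom.

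Of the genes named as paralogs, *RPL36AL* and *RPS4X*, which are counted among the core genes, had an r of 0.702 and 0.733 with the mean of the others, and the paralogs outside the core had lower values. *RPL7L1*, which acts in the making of the large subunit, read 39.9, 29.9, 31.8 and 31.8 FPKM in squalene pools 1 to 4, against 33.1, 26.8, 27.2 and 26.0 FPKM in control pools 1 to 4. Its highest pool was squalene pool 1, and its r with the mean of the others was -0.246. *RPS27L*, a paralog of *RPS27* that p53 induces in human cells, averaged 109.5 ± 14.5 FPKM on squalene and 101 ± 7.65 FPKM on control, with an r of 0.108. *RPL22L1*, the paralog of *RPL22*, averaged 40.9 ± 6.64 FPKM on squalene and 41.8 ± 1.43 FPKM on control, with an r of 0.110. *RPL26L1*, the paralog of *RPL26*, averaged 26.4 ± 4.36 FPKM on squalene and 26.3 ± 1.48 FPKM on control, with an r of 0.116 (SD, n = 4 each).

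Other paralogs were scarce. *RPL3L*, known as the striated muscle form of *RPL3*, read 0.750, 1.41, 1.13 and 1.31 FPKM in squalene pools 1 to 4, against 1.09, 1.34, 1.76 and 0.980 FPKM in control pools 1 to 4, with an r of 0.131. *RPL10L*, known in mammals as a testis form of *RPL10*, was listed at 0 in 7 pools and at 0.120 FPKM in squalene pool 3, and it was the only gene of the 84 that did not pass the filter. *RPS19BP1*, the gene that encodes no ribosomal protein, averaged 23.7 ± 1.99 FPKM on squalene and 23.2 ± 2.35 FPKM on control, with an r of 0.511. Over the 15 pairs of the 6 such genes tested, the median r was -0.033. These genes are also less abundant than the core genes, and the part of abundance in their lower r was not tested.

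**Figure D4:**
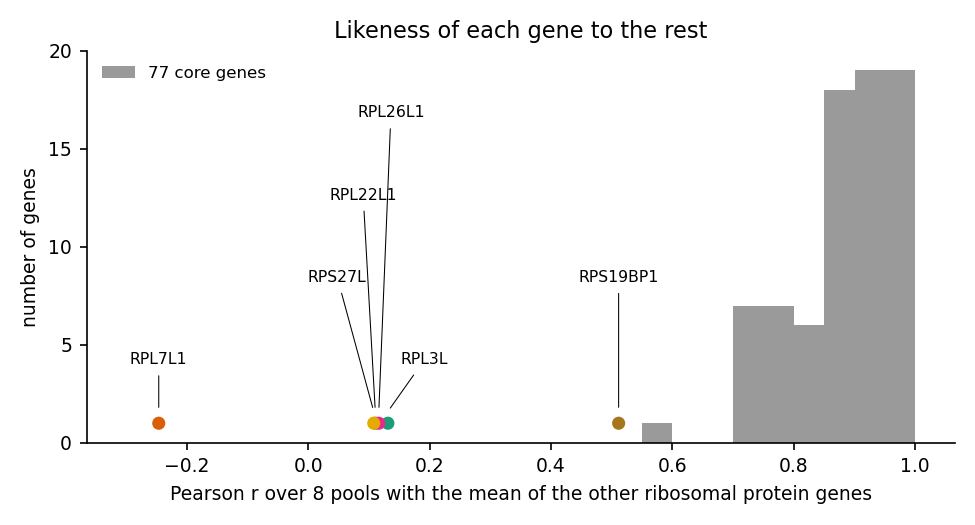
Pearson r over 8 pools between each gene's log2(FPKM + 0.1) and the mean of the other ribosomal protein genes. Bars count the 77 core genes in bins of r, and points mark the 6 other genes tested at their r (their height has no meaning); 76 core genes have an r of at least 0.7, and RPL7L1 lies lowest at -0.246.

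Since the core genes shared one movement, their proportions to one another were also compared, a scaling added after the data were seen. Each gene's FPKM was divided by the sum over the core genes in its pool. This scaling moved all genes upward on squalene alike, to a median log2 fold change of 0.14 over all genes tested, so the shares of all genes given here are not a fair background and nothing was read from them. On this scale *RPL5* was the only core gene lower on squalene in every pool, against 0.217% of all genes: it made up 0.861, 1.01, 0.987 and 1.02% of the core sum in squalene pools 1 to 4, against 1.10, 1.09, 1.10 and 1.14% in control pools 1 to 4. *RPS21*, *RPS18*, *RPL27* and *RPL36AL* were higher on squalene in every pool, against 1.85% of all genes. *RPS21* made up 1.48, 1.29, 1.32 and 1.37% of the core sum in the squalene pools, against 1.18, 1.26, 1.20 and 1.19% in the control pools. The log2 fold changes on this scale were -0.20 ± 0.12 for *RPL5* and 0.18 ± 0.12 for *RPS21* (SE), and none of the 83 genes passed the test (adjusted p of 0.880 by limma for both). These 5 genes were named for their lack of overlap, after their values were seen.

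Some genes of the translation machinery outside the naming rule had a like profile and others did not. Among the genes most like the mean ribosomal protein profile was *FAU*, which encodes ribosomal protein S30 as a fusion, with a Pearson r of 0.950 and a Spearman rho of 0.881 over 8 pools. It read 446, 434, 458 and 389 FPKM in squalene pools 1 to 4, against 497, 402, 494.5 and 497 FPKM in control pools 1 to 4, with control pools 1, 3 and 4 again above all the others. Its log2 fold change was -0.13 ± 0.11 (SE, adjusted p of 0.9997 by limma). *RACK1*, the scaffold protein of the small subunit, had an r of 0.918. *RACK1* averaged 575 ± 85.5 FPKM on squalene and 708 ± 101 FPKM on control (SD, n = 4 each).

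Among the 10 most alike genes were also *EIF3K* (r of 0.966) and *EIF3E* (0.897), subunits of initiation factor eIF3, *EEF1G* (0.915), a subunit of elongation factor 1, *NACA* (0.900), which binds nascent chains at the ribosome, *SLA-DMA* (0.893), a class II histocompatibility gene, and the loci LOC100525935 (0.949) and LOC102160564 (0.887). These genes were chosen for their r. Among the 18 genes of the list of elongation factors and other TOP mRNAs, 17 had a log2 fold change below 0, with a median of -0.21, and 0 passed the test. *EIF3H*, another subunit of eIF3, averaged 163 ± 14.1 FPKM on squalene and 204 ± 14.1 FPKM on control. *EIF4B*, which assists the helicase of initiation, averaged 69.2 ± 8.51 FPKM on squalene and 86.5 ± 3.12 FPKM on control, with no overlap between the diets. *EEF2*, the translocation factor, averaged 520 ± 61.5 FPKM on squalene and 637 ± 45.0 FPKM on control (SD, n = 4 each). Their unadjusted p values were 0.00854, 0.0101 and 0.0240, and their adjusted p was 0.9997 by limma. The list was not uniform in its likeness to the ribosomal protein profile. *EEF1A1* and *TPT1*, its most abundant genes, had an r of 0.862 and 0.778, *EIF3H* of 0.8288, *EEF2* of 0.628 and *EIF4B* of 0.456. *PABPC1*, the poly(A)-binding protein, had an r of 0.284, *EIF4A2*, an initiation helicase, of -0.055 and *HNRNPA1*, an RNA-binding protein, of -0.157. The median pairwise r within the list was 0.695.

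Genes of ribosome biogenesis followed a different profile. Of 30 genes of ribosome biogenesis, 5 had a log2 fold change below 0 and the median was 0.10. They varied together among themselves, with a median pairwise r of 0.525, along another course. Their median difference from the gene's mean was 0.24, -0.11, 0.04 and 0.03 in squalene pools 1 to 4, against 0.20, -0.03, -0.20 and -0.14 in control pools 1 to 4, so that control pools 3 and 4, high for the ribosomal proteins, were the lowest here. Over all genes tested, the median difference was also below 0 in control pools 3 and 4, at -0.07 and -0.06. Low values in those pools were therefore not particular to this list. *RRP1*, a nucleolar processing factor, averaged 7.94 ± 1.14 FPKM on squalene and 6.12 ± 1.10 FPKM on control, with no overlap. *RIOK2* and *NOB1*, which act in the last steps of the small subunit, had log2 fold changes of 0.64 ± 0.30 and 0.32 ± 0.17 (SE). Of 13 genes of the mTOR pathway and other control of ribosomal protein synthesis, 8 were below 0 with a median of -0.087 (-0.016 without control pool 2), and the smallest unadjusted p was that of *TSC2*, a brake on mTOR, at 0.207. Of 13 genes of factors at the ribosome or its membrane receptor, 9 were below 0 with a median of -0.06. None of these genes passed the test.

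Mitochondrial ribosomal proteins, which serve the separate ribosomes of mitochondria, had fold changes mostly above 0. Of 77 genes, 20 had a log2 fold change below 0 and the median was 0.06. Their median pairwise r was 0.182, against 0.781 for the cytosolic set. *MRPS23* averaged 24.1 ± 0.502 FPKM on squalene and 20.01 ± 0.588 FPKM on control, with no overlap, and *MRPL16* averaged 12.7 ± 1.08 FPKM on squalene and 9.98 ± 1.19 FPKM on control (SD, n = 4 each). Their log2 fold changes were 0.27 ± 0.08 and 0.35 ± 0.12 (SE), with an adjusted p of 0.9997 by limma. Genes of the respiratory complexes, whose mRNAs are about as short as those of ribosomal proteins (median gene length 714 bases, against 653 bases), had a median log2 fold change of 0.04 over 72 genes, 25 of them below 0, and a median pairwise r of 0.190. *NDUFAF8*, an assembly factor of complex I that the list took by its name, was lower on squalene without overlap, at 11.5 ± 1.07 FPKM, against 15.6 ± 1.46 FPKM on control, and *ATP5G3* and *NDUFB8* were higher without overlap. *ATP5G3* averaged 186 ± 9.73 FPKM on squalene and 152 ± 5.48 FPKM on control.

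**Figure D5:**
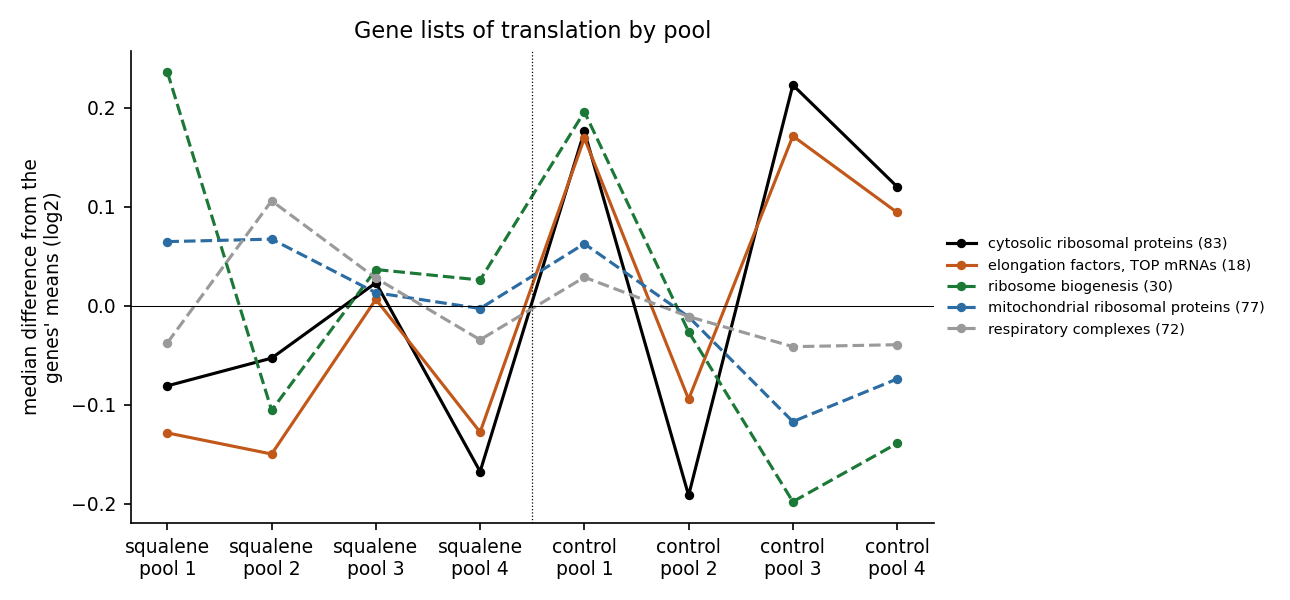
Median over each gene list of the difference of log2(FPKM + 0.1) from the gene's mean over 8 pools, by pool, with the number of genes in brackets. Solid lines, the cytosolic ribosomal proteins and the elongation factors, are high in control pools 1, 3 and 4. Dashed lines, ribosome biogenesis, mitochondrial ribosomal proteins and respiratory complexes, are not high in control pools 3 and 4. Over all genes tested, not drawn, the median was -0.07 and -0.06 in control pools 3 and 4.

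The pools are whole liver, where fewer cells of a type and less RNA per cell cannot be told apart. Hepatocyte markers, 7 of 8 in the table with none at 0, summed to 47638 to 69019 FPKM in the squalene pools, against 42531 to 70303 FPKM in the control pools, with median differences from the gene's mean of 0.20, -0.083, -0.043 and 0.012 in squalene pools 1 to 4, against -0.035, -0.12, 0.19 and 0.057 in control pools 1 to 4. Markers of T and NK cells, which express ribosomal protein genes strongly, summed to 41.9 to 65.7 FPKM over 7 of 8 genes in the squalene pools, against 53.4 to 67.6 FPKM in the control pools, again with none at 0. Their median difference from the gene's mean was 0.10, 0.01, 0.27 and -0.54 in squalene pools 1 to 4, against -0.10, -0.20, 0.32 and 0.21 in control pools 1 to 4. By these medians, squalene pool 4 and control pool 2 were the lowest pools of both sets. Control pool 1 was high for the ribosomal proteins and not for these markers. By the summed FPKM of these markers the order was different, with squalene pool 2 (48.6 FPKM) below control pool 2 (53.4 FPKM). Markers of Kupffer cells and macrophages, all 8 present, summed to 1343 to 1601 FPKM in the squalene pools, against 1337 to 1724 FPKM in the control pools, with the highest value in control pool 2. Their median log2 fold change was -0.17, with 7 of 8 below 0. The median was -0.053 for hepatocyte markers (5 of 7 below 0) and -0.078 for T and NK cell markers (6 of 7). It was -0.24 for B and plasma cell markers (3 of 4 tested), -0.043 for sinusoidal endothelium (3 of 5) and -0.16 for erythroid markers (2 of 2 tested). Stellate cell markers, all 5 present with none at 0, had median differences of -0.50, 0.61, 0.12 and 0.38 in squalene pools 1 to 4, against 0.18, -0.48, -0.11 and -0.31 in control pools 1 to 4, summed to 99.0 to 226 FPKM on squalene and 104 to 168 FPKM on control, and had a median log2 fold change of 0.30. Control pool 2 was the lowest control pool for them too, and squalene pool 1 the lowest of all. The markers did not all go the same way: *LRAT* had a log2 fold change of -0.29 and *DCN* of 0.06. *COL1A1*, *COL1A2* and *COL3A1* had 0.44, 0.32 and 0.30. Cholangiocyte markers, all 4 present with none at 0, summed to 5.35 to 16.4 FPKM on squalene and 7.25 to 8.86 FPKM on control, with a log2 fold change above 0 in each and a median of 0.41. Their levels were low, with *SOX9* at 0.03 to 0.31 FPKM and *KRT7* at 0.64 to 3.77 FPKM. Squalene pool 3 had the lowest sum of the 8 pools. No gene of these marker lists passed the test. The part of cell makeup in the result was not tested.

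Reads of ribosomal protein genes can be shared with near-identical copies. Among the other loci of the table, 34 were annotated as a copy or relative of a cytosolic ribosomal protein gene, 8 of them at 1 FPKM or more and 4 at 10 FPKM or more. The highest, LOC100523526, annotated as an S23 pseudogene, read 278, 287, 287 and 278 FPKM in squalene pools 1 to 4, against 369, 270.3, 337 and 362 FPKM in control pools 1 to 4, the same shape as the ribosomal protein genes. LOC100155572, an S3a pseudogene, averaged 56.4 FPKM over the 8 pools, LOC100739087, annotated as L14-like, 24.7 FPKM and LOC100153579, an L22 pseudogene, 10.9 FPKM. The levels of *RPS23*, *RPS3A*, *RPL14* and *RPL22* are uncertain to that extent.

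Sites where a pool differed from the reference genome were also looked up in the authors' table of single-nucleotide sites. The exons of 82 ribosomal protein genes held 194 sites, or 2.30 per kilobase, beside 2.49 per kilobase in 4300 other genes at 10 FPKM or more, and 28 of the 82 genes had none. Pools of the squalene group carried a base other than the reference at 114, 131, 117 and 123 of these sites, against 132, 119, 122 and 125 in control pools 1 to 4. *RPS25*, of the small subunit, held the most sites (16), followed by *RPL7L1* (15). Each pool mixes 3 animals, so these counts do not describe single animals.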

How the data were processed

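Liver RNA of 24 pigs was sequenced in 8 pools of 3 animals, and the authors mapped the reads to the pig genome (Sscrofa11.1) with HISAT2. For its version, the quantification step and the site caller, details were not given in the sources used here. FPKM with 2 decimals were deposited for every gene in each pool. The authors also deposited estimated counts, summed by diet over 4 pools and used here only for depth, beside a log2 ratio, p-value and q-value per gene of their own comparison, which were not used. The single-nucleotide table that the authors deposited holds other values, namely base letters by site. Results of some genes are not reported here. The splicing tables, a filtered gene list and further site tables were not used here.

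Diets were compared with limma 3.58.1 in R 4.3.3 (lmFit, eBayes with a trend, two-sided) on log2(FPKM + 0.1), over 14780 genes that averaged 0.1 FPKM or more. The pool number did not enter as a block. P-values were adjusted by Benjamini-Hochberg over all these genes, and the script was tested on simulated data. Fold changes on the log2(FPKM + 0.1) scale understate changes of low genes. Python 3.11.15 with pandas 2.3.3, numpy 2.4.6 and scipy 1.17.1 was used for sums, correlations and sequences, and matplotlib 3.10.9 for plots. Depth per pool was estimated by non-negative least squares, with the summed counts of a diet as outcome and each pool's FPKM multiplied by gene length as predictors. Sequences came from the RefSeq assembly and annotation of Sscrofa11.1, where 84 of 84 gene identifiers and 194 of 194 reference bases matched.

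The ribosomal protein genes and the other gene lists were chosen with earlier results of these data known. Genes were named by rule: smallest p, highest and lowest fold changes, highest levels, the paralogs, the widest and narrowest spread, the highest and lowest r with the mean of the others, the 10 other genes most like the mean profile, and the 3 genes of smallest p in each list. Pools came from separate animals, and p-values measure the spread between pools. Alternatives covered the pseudocount (0.01 and 1), the filter (none, and 1 FPKM), the scaling, the trend, the pool number as a block, and each pool left out in turn.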

Additional observations from a re-analysis of the deposited data

Results flagged for a closer look

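In groups of 4 pools, a pool was singled out where its gap to the nearest other pool took up most of the group's range (Dixon's criterion at the 95% level). Chance gives such a pool in about 1 in 20 groups that are independent. The ribosomal protein genes share the same pools and rise and fall together, so their groups are not independent. The counts were not read against that rate. Of 166 groups over the ribosomal protein genes tested, 13 had one, and among 78 groups of values given by name there were 4. *RPL5* stood at 526 FPKM in control pool 2, below the other control pools. *FAU* stood at 402 FPKM in the same pool. Squalene pool 3 stood above the other squalene pools in *RPS4X* (368 FPKM) and in *RPL10L* (0.120 FPKM, with the other pools listed at 0). No explanation was weighed for these values.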

How the results depend on the processing

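In every alternative, including the scaling to the core sum that was added after seeing the data, 0 ribosomal protein genes and 0 genes of the other lists passed the test where it was run. The smallest adjusted p of a ribosomal protein gene was 0.858, without squalene pool 3 (limma). The median log2 fold change stayed below 0: -0.086 after quantile normalization, from -0.24 (without control pool 2) to -0.097 (without control pool 3) when a pool was left out, and -0.0052 (beside 0.14 over all genes) after scaling to the core sum, which removes the shared movement by construction. Genes without overlap between diets numbered 0 to 53 lower and 0 to 1 higher when a pool was left out, the 53 without control pool 2, and 1 lower and 4 higher after scaling to the core sum. The difference in summed share ran from -1.72 to -0.762 points when a pool was left out and was -1.19 without the 10 most abundant genes. The median pairwise r ran from 0.754 to 0.838 when a pool was left out and was 0.848 with the median gene of each pool made equal.

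Of 34 named genes, 9 had the other sign in some alternative and 4 of them without counting left-out pools, the scaling to the core sum, which shifts every gene alike, being set aside. The log2 fold change of *RPL27* was 0.0045 on a TPM scale, 0.0033 with the median gene equal and 0.033 after quantile normalization, that of *RPL36AL* 0.0073, 0.0061 and 0.030, that of *RPL10A* 0.042 after quantile normalization and that of *RPS10* -0.0021 scaled to the sum of other genes. Scaled to the core sum, the sign turned for *RPL10A* (0.10), *RPL13* (0.015), *RPL22L1* (0.11), *RPL24* (0.062), *RPL26L1* (0.15), *RPL27* (0.16), *RPL35* (0.090), *RPL36AL* (0.16), *RPL37A* (0.087), *RPLP1* (0.044), *RPS26* (0.033) and *RPS3* (0.0023). With a pool left out, the range crossed 0 for *RPL22L1* (-0.15 to 0.035), *RPL26L1* (-0.091 to 0.068), *RPL27* (-0.067 to 0.052), *RPL36AL* (-0.091 to 0.046), *RPL3L* (-0.27 to 0.017), *RPS10* (-0.091 to 0.11), *RPS19BP1* (-0.0090 to 0.093) and *RPS21* (-0.058 to 0.063). Beyond the construction named, the cause was not tested.

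Pools of both diets are numbered 1 to 4. The deviations of same-numbered pools correlated at 0.091, 0.017, 0.027 and -0.069, and not every pool correlated best with its own number, so the numbers were not taken as pairing. With the pool number as a replicate block the median log2 fold change was -0.16 and 0 genes passed the test, with 1 ribosomal protein gene higher and 1 lower at an unadjusted p under 0.05, against 0 and 5 without the block.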
